A study of Rattus norvegicus with 10 samples.

Results

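A chain is a run of at least 4 m6A peaks in which each peak lies no more than 1000 bp, edge to edge, from the next. Chains were selected on peak positions alone, separately in each of the 2 deposited peak lists. The list of hypertrophic cardiomyocytes held 269 chains with 1223 of its 65539 peaks. The list of quiescent cardiomyocytes held 336 chains with 1539 of its 68440 peaks.

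The study mapped N6-methyladenosine (m6A), a methyl group on adenosines inside RNA, across the genome in primary heart muscle cells of rat pups 1 to 3 days old. There were 10 libraries in 5 groups of 2, namely input RNA and m6A immunoprecipitates of hypertrophic cells, the same pair for quiescent cells, and an IgG immunoprecipitate of hypertrophic cells. Hypertrophic cells were kept in M199 medium with 2% bovine serum, and quiescent cells in M199 without serum. No group carried a genetic change, per the labels. Each condition has 1 peak list and 1 summit list against the IgG control, although each has 2 m6A libraries, and the sources used here do not say whether libraries were pooled. No value below therefore has a replicate error, and the exact binomial intervals cover counting error only. No IgG library of quiescent cells is listed, so a difference between the lists and a difference in the fit of the control cannot be told apart. The sources used here give no library totals, so depth is known only through the summit heights. The labelled cell type was not checked against marker genes, because the lists name no genes.

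Enzymes of the METTL3 and METTL14 complex place m6A on messenger RNA while it is made, FTO and ALKBH5 can remove it, and YTH proteins read it. The mark is known to gather in long exons and around stop codons, and METTL3 has been tied to the growth of heart muscle cells. In m6A immunoprecipitation the RNA is broken into fragments before pulldown, so a methylated site gives a mound of reads about a fragment wide. Sites close together on a transcript can give a row of summits, and so can sites in neighbouring exons. The lists carry no strand and no gene names, so a chain may lie on 1 transcript or several, and its ends are given in genome order, not 5' to 3'. All positions are in rn4, counted from 1.

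Chains were a small share of the peaks in both lists. They held 1.87% of hypertrophic peaks (95% interval 1.76 to 1.97) and 2.25% of quiescent peaks (2.14 to 2.36). These intervals treat peaks as independent, but chain peaks enter in blocks of at least 4, so the intervals are too narrow. They held 2.23% and 2.53% of the peak-covered length, in that order. Chain peaks covered 669 kb within a summed span of 1.00 Mb in hypertrophic cells, and 796 kb within 1.17 Mb in quiescent cells. The quiescent list had 1.04 times as many peaks as the hypertrophic list and 1.25 times as many chains. The chain excess depended on list length. With the lists cut to equal length by score, there were 269 hypertrophic and 298 quiescent chains, in place of 269 and 336.

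From single peaks to groups of 5, the quiescent list exceeded the hypertrophic list by more at each size, but not beyond that. Single peaks numbered 51044 in hypertrophic and 52781 in quiescent cells, a ratio of 1.03. Groups of 2 numbered 5280 and 5584, a ratio of 1.06. Just outside the threshold, groups of 3 numbered 904 and 984, a ratio of 1.09. Just inside it, chains of 4 numbered 181 and 227, a ratio of 1.25, and chains of 5 numbered 57 and 75, a ratio of 1.32. Chains of 6 numbered 19 in each list, and chains of 7 numbered 7 and 3, with more in the hypertrophic list. Chains of 4 or 5 peaks made up 88.5% of hypertrophic and 89.9% of quiescent chains. At least 8 peaks were present in 5 hypertrophic and 12 quiescent chains.

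**Figure D1:**
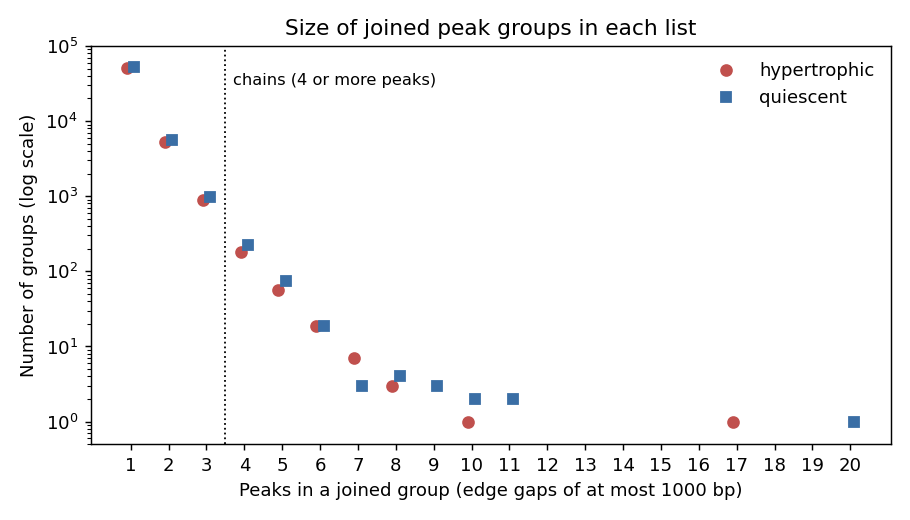
Number of joined groups (log axis) against the peaks in a group, with circles for the hypertrophic and squares for the quiescent list. Groups to the right of the dotted line are chains. The points of both lists fall together up to 3 peaks, and the largest groups have 17 peaks in hypertrophic and 20 in quiescent cells.

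The typical chain spanned a few kilobases, and peaks filled most of it. The median span was 3312 bp in hypertrophic cells (quartiles 2787 and 4287, range 1126 to 16918). In quiescent cells it was 3174.5 bp (quartiles 2455.75 and 4005, range 1143 to 16754). Peaks covered a median of 65.6% of a hypertrophic and 67.8% of a quiescent chain. Quiescent chains were thus slightly shorter and slightly denser at the median, with ranges that overlapped almost whole.

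Summits within a chain lay under a kilobase apart at the median. The median distance between neighbouring summits was 841.5 bp over 954 distances in hypertrophic chains (quartiles 570 and 1122) and 741 bp over 1203 in quiescent chains (quartiles 498.5 and 1072.5). The closest summits were 158 and 155 bp apart, and the most distant 4660 and 4751 bp. Spacing was seldom regular, since the widest distance in a chain was a median of 2.28 times the narrowest in hypertrophic and 2.44 times in quiescent cells. A regular case lay on chromosome 1 from 24562979 to 24564456 in the quiescent list. Its 4 peaks were 140, 145, 143 and 140 bp wide, and their summits were 436 to 456 bp apart. The hypertrophic list held 4 peaks of 139, 143, 135 and 124 bp at the same place. Scores ran 628, 394, 317 and 443 in quiescent and 436, 210, 144 and 267 in hypertrophic cells, so the first peak scored highest and the third lowest in both.

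Most joins did not depend on the far end of the permitted gap, but the number of chains did depend on its size. A gap of at most 500 bp gave 114 hypertrophic chains in place of 269, and 163 quiescent chains in place of 336. The median edge gap was 256.5 bp in hypertrophic and 218 bp in quiescent chains. Gaps under 100 bp made up 26.4% and 31.9% of joins. Gaps of 900 to 1000 bp, just inside the rule, made up 43 joins (4.51%) and 50 joins (4.16%). Just outside it, another peak began within the next 100 bp for 11 hypertrophic and 12 quiescent chains. The nearest peak outside a chain was a median of 4622 bp away in hypertrophic and 3792 bp away in quiescent cells.

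Chain peaks were wider and scored higher than peaks that stood alone, while their summits were about as tall. The score is the authors' own value, in the layout that MACS 1.4 writes as a multiple of minus the log10 of a p-value, and the summit height is the read pileup at the highest base. The median score was 158 for chain peaks, 152 in groups of 3 and 115 for single peaks of the hypertrophic list. The quiescent values were 153, 144 and 122. The median summit height was 18 for both chain and single peaks in hypertrophic cells, and 15 for both in quiescent cells. The median width was 414 bp against 330 bp in hypertrophic and 393 bp against 333 bp in quiescent cells. Groups of 3, with widths of 401 and 393.5 bp, were close to chains in both lists. The rule joins peaks by their edges, and at a given summit distance wider peaks leave smaller gaps. Width is therefore not independent of the selection, and its values are a description. Whether the score difference goes with width was not tested.

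Scores within a chain were uneven, with at least 1 weak peak in most chains and a clear leader in fewer. The highest score of a chain had a median of 602 in hypertrophic and 577 in quiescent cells, and the lowest score a median of 65.4 and 66.4, where the lists begin at a score of 50. The highest score was a median of 2.87 times the chain's median score in hypertrophic and 2.63 times in quiescent cells. It was at least 2 times the runner-up in 123 hypertrophic chains (45.7%) and 138 quiescent chains (41.1%). Along the chain the scores had more than 1 local maximum in most chains, with exactly 2 in 173 hypertrophic and 221 quiescent chains. At least 1 peak under a score of 100 was present in 77.0% and 80.4% of chains. Every peak scored 200 or more in only 11 hypertrophic and 14 quiescent chains.

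At gaps of at most 1000 bp with all peaks kept, the leading peak lay at an end about as often as end positions occur. In some other settings it did so more often. It lay at an end in 130 of 269 hypertrophic chains (48.3%, 95% interval 42.2 to 54.5) and 169 of 336 quiescent chains (50.3%, 44.8 to 55.8). Averaged over chains, ends were 45.6% of the positions in each list, inside both intervals. In chains joined at gaps of at most 500 bp the leading peak lay at an end more often, in 57.0% of hypertrophic and 59.5% of quiescent chains. A chain has at least 4 peaks, so ends are at most 50% of its positions, and both shares were above that. Counting intervals are not given for them. With scores of at least 100 the shares were 53.9% and 57.5%. At gaps of at most 2000 bp they were 47.8% and 49.1%, within the intervals above. By position, chains of 4 peaks had their highest score at positions 1 to 4 in 50, 47, 42 and 42 cases of the hypertrophic list. The quiescent counts were 49, 53, 58 and 67. The median score was 160 for end peaks and 158 for inner peaks in hypertrophic chains, and 160 and 149 in quiescent chains. Scores rose steadily from the first to the last peak in 13 and 16 chains and fell steadily in 11 and 7.

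Score and height did not always name the same peak. The highest score and the tallest summit coincided in 68.4% of hypertrophic and 67.9% of quiescent chains. On chromosome 14 from 84282707 to 84292230, the 4 hypertrophic peaks scored 1310, 277, 181 and 55.9 while their summit heights were 112, 160, 132 and 135. The quiescent list held 4 peaks there with scores of 1865, 798, 841 and 127 and heights of 112, 153, 119 and 129. The last peak had the lowest score but not the lowest height in either list.

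Low summits were more frequent in the quiescent list, with a wider gap among chains than in groups of 3 or among all peaks. No summit was taller than 20 in 45 hypertrophic chains (16.7%) and 91 quiescent chains (27.1%). The same held for 23.5% and 29.1% of groups of 3 and for 55.2% and 61.0% of all peaks taken singly. At the other end, the tallest summit was above 100 in 33 hypertrophic and 35 quiescent chains. A score of exactly 3100, which several strong peaks share, occurred in 10 hypertrophic and 18 quiescent chains.

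The largest chains were long rows of weak to moderate peaks. On chromosome X from 13531441 to 13548358, 17 hypertrophic peaks spanned 16918 bp, with scores from 60.7 through a median of 110 to 446 and summit heights from 7 to 30. The quiescent list placed 16 peaks there, in chains of 9 and 8 peaks that together held 1 peak outside the hypertrophic span. Scores of the quiescent peaks within the span reached 576 and heights reached 37. The break between the quiescent chains therefore turned 1 chain into 2 with nearly the same peaks.

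The 20 quiescent peaks on chromosome 1 from 33121022 to 33137775 spanned 16754 bp. Their scores ran from 55.0 through a median of 125 to 378, and their heights from 7 to 16. The hypertrophic list held 14 peaks over the same stretch, split into a group of 3, a chain of 10 from 33127032 to 33136339 and a single peak. The chain of 10 had scores from 63.6 to 246 and heights from 8 to 13. Heights in both lists were low. Heights of 16, 10 and 8 at peaks 4 to 6 of the quiescent row came again at its peaks 15 to 17. The highest score of both rows fell on the same summit region, at 33134495 in quiescent and 33134513 in hypertrophic cells.

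**Figure D2:**
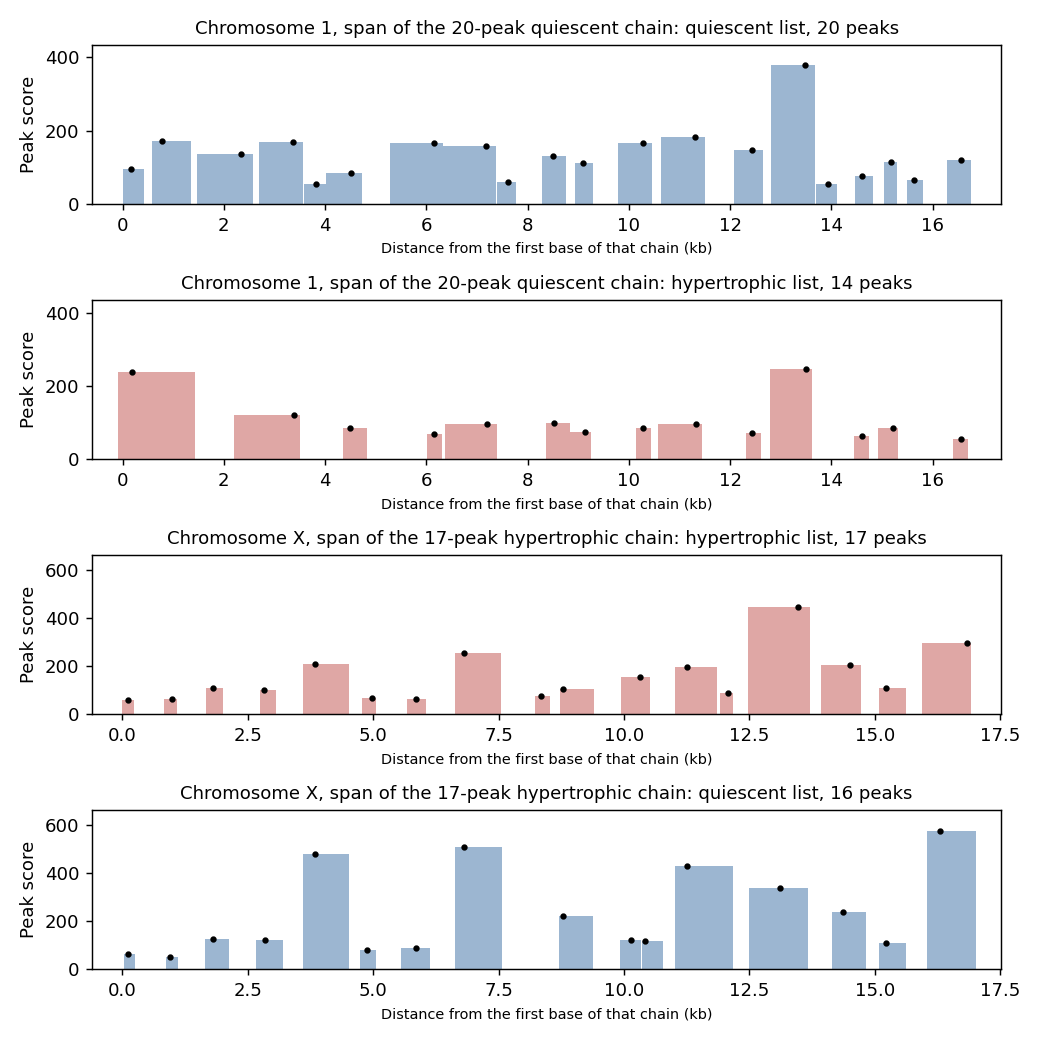
Peak score against distance from the first base of the chain in kb, for the 20-peak quiescent chain of chromosome 1 and the 17-peak hypertrophic chain of chromosome X, each with the peaks of both lists in its span, bars as wide as the peaks and dots at the summits. On chromosome 1 the 20 quiescent peaks face 14 hypertrophic ones, and on chromosome X the 17 hypertrophic peaks face 16 quiescent ones.

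Other large chains differed more between the lists. On chromosome 19 from 52506412 to 52515425, 8 hypertrophic peaks scored 1296, 56.3, 344, 691, 99.9, 86.4, 89.2 and 113, with summits from 20 to 84. Only 2 quiescent peaks lay there, with scores of 195 and 121 and heights of 41 and 35, and 5 of the 8 hypertrophic peaks overlapped neither. On chromosome 1 from 111386334 to 111395763, 11 quiescent peaks scored 57.6 to 483 and 5 hypertrophic peaks scored 57.2 to 185. On chromosome 7 from 130374529 to 130383649, 11 quiescent peaks scored 53.9 to 277, with heights from 7 to 17. There the hypertrophic list had a single peak, at the first position, scoring 61.7 at a height of 8. On chromosome 16 from 18609045 to 18614530, 10 quiescent peaks were led by the first at 933, and the other scores lay between 129 and 190. The 3 hypertrophic peaks there scored 146, 57.1 and 52.5, and each stood alone.

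The longest chains with few peaks were made mostly of wide, tall peaks. On chromosome 6 from 137769639 to 137782765, 6 hypertrophic peaks spanned 13127 bp with heights of 76 to 160 and scores of 133 to 821. The quiescent list held 5 peaks there with heights of 66 to 161 and scores of 79.5 to 1255. On chromosome 1 from 94951109 to 94963102, 6 quiescent peaks spanned 11994 bp, 3 of them at a score of 3100, with heights of 39 to 164. The 4 hypertrophic peaks there also included 3 at 3100 and reached a height of 161. The tallest heights at these chains were close in both lists, though not at the same peak on chromosome 1. There the quiescent height of 164 was at the first peak, which scored 74.3 and overlapped no hypertrophic peak. A height of 164 was also the tallest summit of each list as a whole. Whether 164 bounds the height of tall summits was not tested, so close heights near it do not show that the pileups were alike.

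Some chains had a strong peak at every position. On chromosome 1 from 198717832 to 198721066, the hypertrophic scores were 710, 503, 384 and 1424. The quiescent chain at the same place, from 198717719 to 198721018, scored 1950, 505, 491 and 1264. The ends were high and the middle low in both. On chromosome 8 from 53395875 to 53402027, the 4 hypertrophic peaks scored 441, 703, 663 and 610, and no other hypertrophic chain had so high a minimum. The quiescent list held 3 peaks of 211, 390 and 107 there, and no peak at the first position.

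Chains of one condition most often met a chain or a smaller group in the other. A chain was taken to meet the other list where its span overlapped a joined group or peak there by at least 1 bp. Of 269 hypertrophic chains, 130 (48.3%, 95% interval 42.2 to 54.5) met a quiescent chain, 112 (41.6%) met at most a group of 2 or 3, 26 (9.67%) met only single peaks, and 1 (0.372%, up to 2.05) met nothing. Of 336 quiescent chains, 130 (38.7%, 33.5 to 44.1) met a hypertrophic chain, 141 (42.0%) a group of 2 or 3, 45 (13.4%) only single peaks, and 20 (5.95%, 3.67 to 9.04) nothing. These shares are small beside single peaks, and they fell with the size of a group, which has more peaks that could meet one. Nothing was met by 27.1% of single peaks, 7.78% of groups of 2 and 2.21% of groups of 3 in the hypertrophic list, and by 29.8%, 11.7% and 6.40% in the quiescent list. Over all peaks of a list, 25.8% and 29.0% overlapped no peak of the other. Where a joined group had to cover at least 50% of the chain's span to be met, 23.4% of hypertrophic and 31.5% of quiescent chains met nothing. The same number of chains met a chain from either side, so the larger quiescent number lay in chains that met less. Both lists share the IgG control, and the RNA came from bulk cultures, in which fewer cells of a type and less RNA per cell cannot be told apart.

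**Figure D3:**
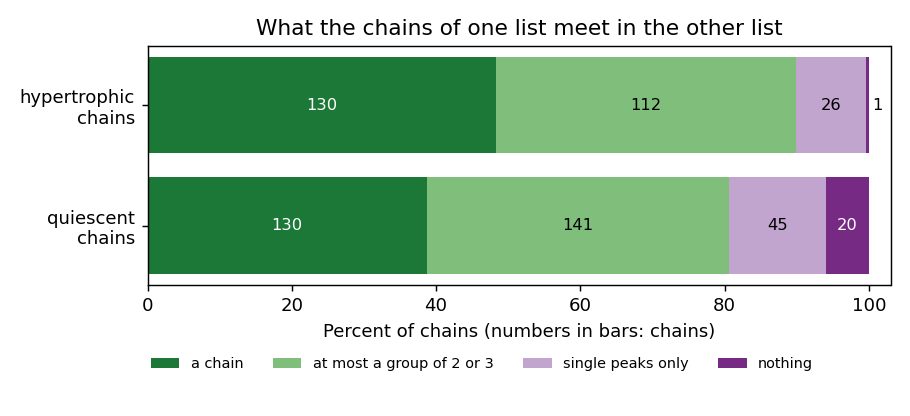
Percent of chains of each list that met a chain, a group of 2 or 3 peaks, only single peaks or nothing in the other list, with the number of chains in each segment. A chain was met by 130 chains from each side, and nothing by 1 hypertrophic and 20 quiescent chains.

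Chains that met less were also weaker. In the hypertrophic list the median of the highest score was 687 for chains that met a chain, 541 for those that met a group and 369 for those that met single peaks. The quiescent medians were 776, 522 and 338, and 165 for those that met nothing. The median tallest summit fell in the same order, from 54.5 through 43 to 26 in hypertrophic cells and from 48.5 through 36 and 21 to 11 in quiescent cells. Of the 20 quiescent chains that met nothing, 18 had no summit above 20. The part of signal strength in this result was not tested.

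The chains that met nothing were rows of low summits. The hypertrophic case lay on chromosome 1 from 185025531 to 185027916, with scores of 66.7, 51.9, 94.96 and 53.3 and heights of 5 to 8. The nearest other hypertrophic peak was 23892 bp away. The largest quiescent case lay on chromosome 1 from 228203325 to 228211844, with 10 peaks scoring 62.3 to 352 and heights of 7 to 19. A chain of 7 peaks on chromosome 2 from 226386789 to 226391152 scored 63.2 to 288 with heights of 6 to 11. A chain of 6 on chromosome 5 from 138465726 to 138470726 scored 66.9 to 184 with heights of 7 to 15. On chromosome 16 from 37874253 to 37878765, 5 peaks scored 65.1 to 201, and on chromosome 7 from 76009446 to 76012999, 5 peaks scored 74.9 to 381. Their tallest summits were 26 and 20.

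A hypertrophic chain of taller summits faced 1 quiescent peak on chromosome 1 from 68040243 to 68043280. Its 6 peaks scored 52.1, 201, 100.8, 107, 153 and 84.7, with heights of 26, 62, 49, 71, 44 and 16. The quiescent peak matched the third of them, scoring 69.7, and its height was 35 against 49. The summit files give heights only at listed peaks, so the quiescent pileup at the other 5 positions is not known here.

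Taken peak by peak, hypertrophic chain peaks had a partner in the other list more often than the rest, and quiescent chain peaks about as often. A partner was any overlapping peak of at least 1 bp. Of 1223 hypertrophic chain peaks, 1009 (82.5%) had one, beside 74.2% of all hypertrophic peaks. Of 1539 quiescent chain peaks, 1127 (73.2%) had one, beside 71.0% of all quiescent peaks. The share was 72.9% and 70.2% for single peaks and 80.7% and 74.3% in groups of 3, so chains stood near groups of 3 in both lists.

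Peaks of higher score had a partner more often in both lists. In the hypertrophic list, peaks with scores of 50 to 100 had a partner in 56.8% of chain peaks and 51.0% of all peaks, and those of 100 to 200 in 88.4% and 82.0%. In the quiescent list the same classes gave 50.9% against 49.0% and 71.2% against 75.2%. From a score of 400 the share was 99.3% and 97.7% for chain peaks, and 99.5% and 97.4% for all peaks. Chain peaks with a partner had a median score of 205 in hypertrophic and 209 in quiescent cells, and those without one 70.1 and 86.6. Their median heights were 21 against 11 and 18 against 9.

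Most chains that met no chain had at least 1 peak without a partner. Of 139 such hypertrophic chains, 89 (64.0%) had at least 1 peak without a partner and no peaks that shared a partner. Another 26 (18.7%) had at least 2 peaks overlapped by the same peak of the other list and no missing partner, 19 had both and 5 neither. Of 206 such quiescent chains the counts were 131 (63.6%), 36 (17.5%), 36 and 3. Over all chains, every peak had a partner in 133 hypertrophic chains (49.4%) and 142 quiescent chains (42.3%), and exactly 1 peak lacked one in 81 and 87. Missing partners were slightly more frequent at ends, at 19.5% against 15.9% of inner peaks in hypertrophic and 27.4% against 26.3% in quiescent chains.

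In other places several chain peaks shared an overlap, each of 1 bp or more, with the same peak in the other list. There were 108 such cases for hypertrophic and 134 for quiescent chains, of which 93 and 121 joined 2 chain peaks. The joining peak was wider than each chain peak it overlapped in 81 of 108 and 105 of 134 cases, and it held all of their summits in 69 and 72. The median width of the joining peak was 890.5 bp in the quiescent list and 769.5 bp in the hypertrophic list. Quiescent joining peaks scored higher than the best chain peak they overlapped in 80 of 108 cases, with a median ratio of 1.45. Hypertrophic joining peaks did so in 66 of 134, with a median ratio of 1.00. No score ratio over all overlapping peaks is given beside these. A score difference between the lists as a whole therefore cannot be told apart from a trait of joining peaks. Summit heights were nearly level, with median ratios of 0.941 and 1.04 and a taller joining peak in 43 of 108 and 70 of 134 cases.

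**Figure D4:**
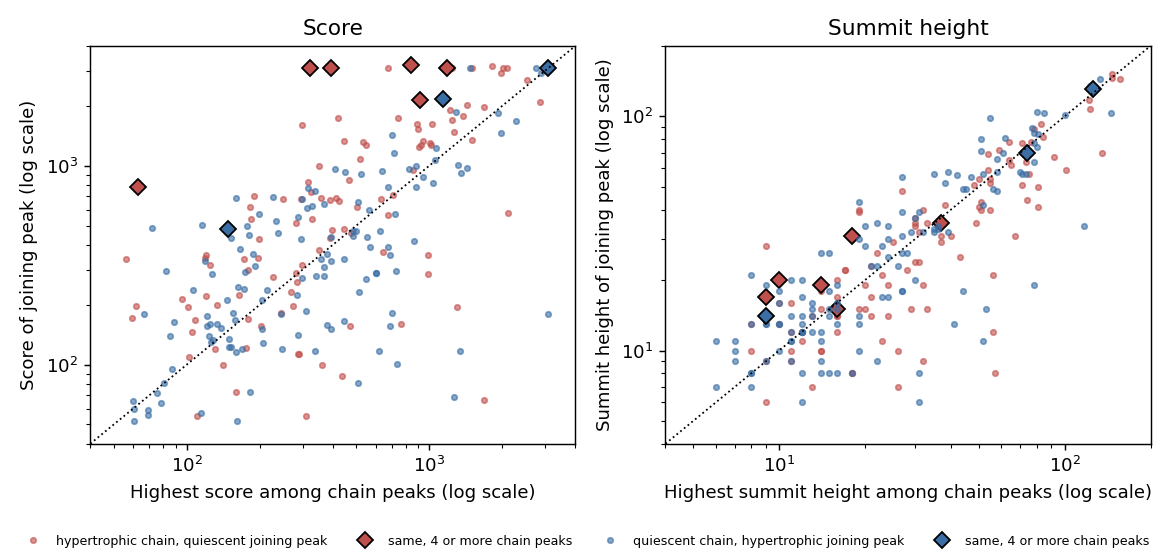
Score (left) and summit height (right) of a peak that joins several chain peaks of the other list, against the highest value among those chain peaks, on log axes with the line of equality. Heights lie around the line, and diamonds mark the cases that join at least 4 chain peaks.

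At the widest joining peaks, scores differed more than heights. Over the 10 widest, from 2847 to 5414 bp, the score was 1.00 to 9.61 times that of the best chain peak overlapped, with a median of 2.45. The height was 0.760 to 2.00 times the tallest, with a median of 1.07. The named cases were picked after their values were seen, and include all 3 in which 6 chain peaks met the same peak. The first of them, with a joining peak of 2808 bp, is not among the 10 widest. On chromosome 17 from 58770402 to 58773181, 6 hypertrophic peaks scored 238, 261, 59.5, 50.3, 393 and 90.2, with heights up to 18. A single quiescent peak of 2808 bp covered all of them at a score of 3100, 7.89 times the best of the 6, and a height of 31. On chromosome 2 from 25369143 to 25372227, 5 hypertrophic peaks scored 78.1 to 323 with heights of 9 and 10. The quiescent list had 1 peak of 3171 bp there, scoring 3100 at a height of 20. On chromosome 6 from 2877806 to 2884776, 8 hypertrophic peaks scored 89.8 to 1181 with heights of 9 to 14. Of these, 6 lay under a quiescent peak of 5414 bp that scored 3100 at a height of 19. On chromosome 8 from 72327219 to 72331117, 6 hypertrophic peaks scored 89.6 to 844, and a quiescent peak of 3936 bp scored 3221, with tallest summits of 37 and 35. In the other direction, on chromosome 11 from 37960300 to 37964271, 4 quiescent peaks scored 1135, 589, 544 and 390 with heights of 126, 85, 34 and 26. A hypertrophic peak of 3350 bp that scored 2171 at a height of 131 overlapped all 4. On chromosome 1 from 79540403 to 79543284, 4 quiescent peaks scored 79.2 to 3100, with a tallest summit of 74. A hypertrophic peak of 2859 bp also scored 3100, at a height of 70, so the heights differed little. Several strong peaks share the score of exactly 3100, so this tie does not show that the scores were alike. The score ratios above that involve a score of 3100, among them 1.00, 7.89 and 9.61, carry the same limit. Whether 3100 bounds the score of most strong peaks was not tested. At these places a chain in one list and a wide peak in the other lay over the same stretch.

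Chains that met one to one mostly had like numbers of peaks. There were 127 such pairs, with equal numbers in 75, more hypertrophic peaks in 27 and more quiescent peaks in 25. The shared length was a median of 97.0% of the longer chain. On chromosome 2 from 51957969 to 51964771, a chain of 8 hypertrophic peaks met a quiescent chain of 5. The 2 hypertrophic peaks with the lowest scores, 60.9 and 51.8, had no quiescent peak at their summits. On chromosome 17 from 95085233 to 95090389, 6 hypertrophic peaks scored 476, 75.3, 52.3, 104, 1980 and 3100, and the 4 quiescent peaks scored 460, 100, 2927 and 3100. The strong peaks were in both lists and the extra ones were weak. On chromosome 16 from 31388354 to 31396605, 8 quiescent peaks scored 66.4, 2284, 110, 1287, 58.5, 953, 3100 and 57.2. The hypertrophic list held 7 peaks in that span, with its strongest at 1680 and 2357 opposite the 2284 and 3100, but only 4 of them in the chain. On the same chromosome from 17825590 to 17831136, 9 quiescent peaks scored 55.1 to 484 and 5 hypertrophic peaks 97.8 to 443.

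Summit heights at matched positions were close in the lists. Summits within 100 bp that were each other's nearest were matched, which gave 42738 sites, 1188 of them in a chain of at least 1 list. The hypertrophic summit was at least 2-fold taller at 68 chain sites (5.72%), beside 5.66% of all matched sites. The quiescent summit was at least 2-fold taller at 36 chain sites (3.03%), beside 3.43% of all. The median log2 ratio of hypertrophic over quiescent height was 0.12 at chain sites and 0.16 at all matched sites. Both shares were near the background.

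Beside all matched sites, heights at sites in a hypertrophic chain only leaned further to the hypertrophic list. Against the same background, sites in a quiescent chain only lay towards the quiescent list. At sites in chains of both lists, both 2-fold shares were below those of all matched sites, 5.66% (hypertrophic taller) and 3.43% (quiescent taller). At 309 sites in a hypertrophic chain only, the hypertrophic summit was at least 2-fold taller at 30 (9.71%) and the quiescent at 7 (2.27%), with a median log2 ratio of 0.29. At 401 sites in a quiescent chain only, the counts were 17 (4.24%) and 20 (4.99%), with a median of 0.05. At 478 sites in chains of both lists they were 21 (4.39%) and 9 (1.88%), with a median of 0.08. Peaks are listed by the same signal that gives the height, so membership in these classes is not independent of it, and the values are a description. Heights carry no stated scaling, and input RNA was not used, so a taller summit and a more abundant transcript cannot be told apart.

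Chains were spread over chromosomes 1 to 20 and X, with chromosome 16 apart in the quiescent list. It held 13 hypertrophic and 30 quiescent chains, which is 5.46 and 11.2 per 1000 peaks. The lowest values were 1.44 on chromosome 15 in hypertrophic cells and 2.65 on chromosome 13 in quiescent cells. The highest hypertrophic value was 6.48, on chromosome 18. Chromosome 1 held 44 and 54 chains, chromosome 2 held 16 and 28, chromosome 11 held 4 and 11 and chromosome 20 held 6 and 12. The order was the other way on chromosome 8, with 15 and 12, on chromosome 9, with 11 and 8, and on chromosome 10, with 12 and 10. Without chromosome 16 the lists at their full length held 256 and 306 chains, so the quiescent excess at that length was not confined to it. Chromosome 16 was not left out of the lists of equal length.

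**Figure D5:**
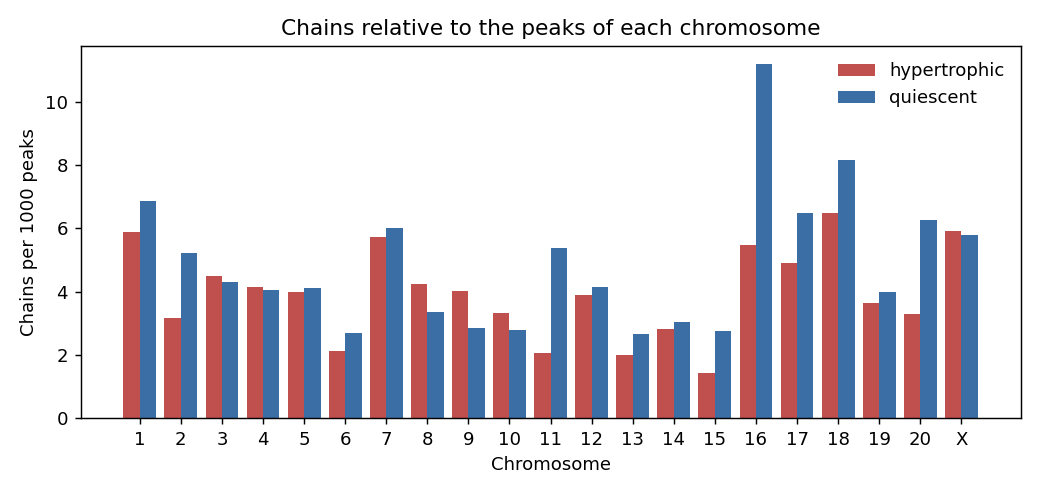
Chains per 1000 peaks of each chromosome in the hypertrophic and quiescent lists. Chromosome 16 has the highest value, 11.2 in the quiescent list against 5.46 in the hypertrophic list.

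A few windows of 1 Mb held several chains. On chromosome 18 from 30000001 to 31000000 there were 6 hypertrophic and 7 quiescent chains, and 5 of them met one to one. Of these, the chains from 30326857 to 30329924 and from 30326860 to 30329923 had 4 peaks each, with highest scores of 1266 and 889 and tallest summits of 88 and 68. The chains from 30600638 to 30603540 and from 30600639 to 30603504 also had 4 each, with highest scores of 991 and 882. These rows lay at nearly the same bases in both conditions. On chromosome 16 from 27000001 to 28000000 there were 0 hypertrophic and 6 quiescent chains, among 95 and 175 peaks. All of the 6 met hypertrophic peaks, 3 of them a group of 2 or 3 peaks and 3 only single peaks. One, from 27737545 to 27741781, had 4 peaks with scores from 240 to 655 and heights from 17 to 59, and 1 of its peaks lacked a partner.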

How the data were processed

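Neonatal rat cardiomyocytes were profiled by m6A immunoprecipitation sequencing. Per the submitters' processing notes, CASAVA 1.8, TopHat and MACS 1.4 were used with the build rn4. The deposited peak lists give a score per peak, and the deposited summit lists give a signal, the pileup height at the summit. The authors' pooling and scaling are not given in the sources used here. All 4 files were used and 0 columns of values were left out.

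Peaks of a list were joined at edge gaps of at most 1000 bp, and groups of at least 4 were kept. Overlaps needed 1 bp, and matched summits lay within 100 bp. Shares carry exact (Clopper-Pearson) 95% intervals. No test was made, since each condition has 1 list. Named chains had the most peaks, longest span, highest lowest score, or most peaks among chains meeting nothing or a single peak, or were pairs differing most in peak number; the joined peaks, the example of regular spacing and the chains named within windows were chosen after their values were seen. Members and lists were chosen with earlier results of these data known. The joining code was tested on simulated lists. Gaps, chain size, score minimum, list length and overlap rules were varied, and leaving out chromosome 16 was added after seeing the data. The software was matplotlib 3.10.9, pandas 2.3.3, scipy 1.17.1 and numpy 2.4.6 under Python 3.11.15.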

Additional observations from a re-analysis of the deposited data

How the results depend on the processing

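Of 60 alternative values, 34 stayed within the counting interval of the main value, or within 1.5 times a main count, and 26 moved outside it. A gap of at most 500 bp gave 114 hypertrophic and 163 quiescent chains, of which 36.8% and 25.8% met a chain and 0% of the hypertrophic met nothing. The highest score then lay at an end in 57.0% and 59.5%, and the median summit spacing was 674 and 602 bp. A gap of at most 2000 bp gave 609 and 713 chains, 45.2% of the quiescent meeting a chain, and spacings of 1071.5 and 1008 bp. Chains of at least 5 peaks numbered 88 and 109, with 0% of the hypertrophic meeting nothing and a hypertrophic spacing of 801 bp. Peaks with scores of at least 100, joined anew, gave 89 and 106 chains, 9.43% of the quiescent meeting nothing, 57.5% of the quiescent with the highest score at an end, and spacings of 874.5 and 896.5 bp. Requiring 50% of the span to be covered by the group met left 23.4% and 31.5% meeting nothing. The quiescent list had more chains than the hypertrophic under each of these settings, and with lists of equal length there were 269 and 298. No paired analysis was possible because each condition has 1 list. Depth is unknown beyond the summit heights, and a peak missing from a list is not shown to be absent from the RNA.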

Other observations

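Some peaks of 1 list shared width, score, summit height and summit offset with another peak of that list. Such equal peaks made up 5.91% of all hypertrophic and 6.12% of all quiescent peaks, and 48 (3.92%) and 62 (4.03%) of chain peaks. The search for them was chosen after seeing the data. In 1 hypertrophic and 4 quiescent chains, both equal peaks lay in the same chain. On chromosome 2 peaks 2 and 4 of the hypertrophic chain from 45595926 to 45598309 were both 240 bp wide, scored 50.3 and had a height of 7, and lay 907 bp apart. In the overlapping quiescent chain from 45595927 to 45597526, peaks 1 and 3 were both 315 bp wide, scored 603 and had a height of 27, also 907 bp apart. On chromosome 12 from 18632623 to 18634392, quiescent peaks 1 and 3 were 275 bp wide with a score of 83.02, and lay 962 bp apart. On chromosome 9 from 90088868 to 90091584, quiescent peaks 2 and 4 were 297 bp wide with a score of 163, and lay 871 bp apart. In the 20-peak quiescent chain on chromosome 1 from 33121022 to 33137775, peaks 5 and 16 were 424 bp wide, scored 55.0 and had a height of 10, and lay 10104 bp apart. The sequence at these positions was not analysed here.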
